A study of Mus musculus with 3 samples.

Results

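The genes that encode the initiation and elongation factors of cytoplasmic translation were examined in activated regulatory T cells, CD4 cells that depend on Foxp3 and curb immunity (Treg). Members were protein-coding genes whose GENCODE M21 symbol begins with Eif1 to Eif6, Eef1 or Eef2, leaving out the eIF2 kinases (Eif2ak) and the Y-linked eIF2 gamma gene. The rule found 63 genes among 55536 annotated mouse genes, of which 22028 are protein-coding. The rule used names and no measured value.

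The data were polyadenylated RNA-seq libraries of primary activated Treg, labelled as male mouse cells aged 3 weeks and with the whole organism given as origin. The labels name no strain, transgene or means of activation. They describe 3 libraries as technical replicates 1, 2 and 3 of 1 biological replicate, here libraries 1, 2 and 3. All belong to 1 group, so every spread below is between these libraries and, by the labels, not between animals.

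Translation of most mRNAs begins when the small ribosomal subunit, loaded by eIF2 with initiator methionyl-tRNA and held by eIF1, eIF1A, eIF3 and eIF5, is brought to the capped 5′ end by eIF4F. This complex joins the cap-binding protein eIF4E, the helicase eIF4A and the scaffold eIF4G, and the 4E-BPs compete with eIF4G for eIF4E. After start-site choice and joining of the large subunit by eIF5B, eEF1A delivers aminoacyl-tRNAs, eIF5A assists difficult peptide bonds and eEF2 moves the ribosome along. Quiescent T cells hold translation low and raise it on activation, and mTORC1 is the best-known regulator of these steps in lymphocytes.

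Start-codon contexts of the members are shown first, because eIF1 and eIF5 set how strictly start sites are chosen. The start codon of eIF1 itself is known to lie in a weak context. The strong mammalian context has A or G at position -3 and G at position +4, counted with the A of ATG as +1. Each sequence below takes 9 bases, the start codon and 1 base, with the codon in capitals. The source is the most abundant coding transcript that the M21 annotation does not mark as incomplete.
Eif1: tcgtatcgtATGt
Eif1b: tagtgtcgcATGt
Eif5: taagccaaaATGt
Eif4g2: gccgccaaaGTGg
Eef1a1: aaagcaaaaATGg
Eef1b2: gccttcgccATGg
Eef2: tccgccaccATGg
Eif5a: cctcttaaaATGg
Eif1 and its paralog Eif1b had neither feature of the strong context, with C at -3 and T at +4. Eef1a1, Eef1b2, Eef2 and Eif5a had both. eIF1 is the factor that makes the scanning ribosome pass over weak contexts, and its own weak start codon is conserved in eukaryotes. Eif4g2, which encodes the eIF4G relative DAP5, is annotated with a GTG start codon in an otherwise strong context. Of 57 detected members with an ATG and 9 or more bases before it, 28 had both features, 24 had 1 and 5 had neither. Among 10204 detected protein-coding genes these shares were 46.1% for both, 47.2% for 1 and 6.66% for neither. The 5 members with neither were Eif1, Eif1b, Eif2b4, Eif3b and Eef1akmt1. Eif5 had A at -3 and T at +4.

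A second set of sequences concerns the terminal oligopyrimidine (TOP) tract, a C followed by a run of pyrimidines at the very start of an mRNA, through which mTORC1 and Larp1 control translation factor and ribosomal protein mRNAs. The first 20 bases of the same coding transcripts are shown, with a tract of C and at least 4 further pyrimidines in capitals.
Eef1b2: CTTTTTTTCCCTCagcgctg
Eif3f: CTCTTTCTCggcaagatggc
Eif2s1: CTCTTggttgactaaaactt
Eef1a1: ttcccgagggtgggggagaa
Eef2: gttgacgtcagcggtctctt
Of 60 detected members, 3 began with such a tract, against 2.29% of 10522 detected protein-coding genes. Counting tracts that begin within the first 6 bases, the numbers were 12 of 60 members and 10.9% of genes. Eef1a1 and Eef2, textbook TOP mRNAs, did not begin with one at their annotated starts. Nor did Eef1d, Eef1g, Eif3e, Eif3h and Eif4b, which were also listed as known TOP mRNAs. None of these genes had a tract beginning within the first 6 bases. Whether a tract is found depends on the exact base at which the annotation places the start, which these libraries did not map.

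Promoters of 47 of the 63 members were found in RefSeq (GRCm38.p6, the build called mm10), each 300 bases long from 250 before to 50 after the annotated start. Some genes had more than 1, with 61 promoters for the 47 members and 32851 for all 27025 genes. A gene counted as holding a motif if any of its promoters did, and the shares below were not matched for promoters per gene. TATANAA, the core of the TATA box, CACGTG, the E-box bound by Myc and Usf proteins, and CCGGAAG, a site of the Ets class, were searched on both strands. No base can belong to 2 different motifs of these. The 3 windows below run from 50 bases before to 30 after the start and hold TATANAA in capitals. They are all the windows of these bounds in which a member held the motif on its own strand. The motif was chosen after the levels were seen, and these genes are 3 of the 5 most abundant members.
Eef1a1, chr9:78481695-78481774, minus strand: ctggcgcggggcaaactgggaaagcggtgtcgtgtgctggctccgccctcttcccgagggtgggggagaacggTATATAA
Eif1, chr11:100319899-100319978, plus strand: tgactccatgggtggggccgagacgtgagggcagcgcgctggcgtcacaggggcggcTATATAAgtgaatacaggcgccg
Eef2, chr10:81176581-81176660, plus strand: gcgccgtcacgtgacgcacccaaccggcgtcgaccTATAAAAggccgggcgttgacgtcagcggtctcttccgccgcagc
Counting the annotated start as +1, the motif began after the start in Eef1a1, at +24, and in Eif1, at +8. In Eef2 it began before the start, at -15. Whether these matches act as TATA boxes was not tested. In all, 4 of 47 members held TATANAA (Eef1a1, Eef2, Eif1 and Eif3c), against 6.14% of 8414 detected protein-coding genes and 13.2% of all 27025 genes with a promoter. CACGTG was present in 13 of 47 members, against 12.1% of the detected protein-coding genes and 8.09% of all genes. CCGGAAG was present in 16 of 47 members, against 22.8% and 9.93%. The median level was 144 TPM for the 13 members with CACGTG and 63.5 TPM for the 34 without it, a description for which no test was made. Examples of 60 bases from 4 of these promoters, also chosen with the levels known because they belong to eIF4F genes and the abundant Eif5a, are printed with CACGTG in capitals.
Eif4e, chr3:138527018-138527077, plus strand: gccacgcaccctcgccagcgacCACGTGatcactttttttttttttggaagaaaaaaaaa
Eif4a1, chr11:69672580-69672639, minus strand: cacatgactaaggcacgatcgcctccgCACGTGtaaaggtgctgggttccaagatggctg
Eif4g1, chr16:20672646-20672705, plus strand: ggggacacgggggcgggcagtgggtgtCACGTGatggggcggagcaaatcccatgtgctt
Eif5a, chr11:69921428-69921487, minus strand: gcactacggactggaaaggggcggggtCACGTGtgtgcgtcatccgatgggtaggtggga
Eif4e, Eif4a1 and Eif4g1 encode the cap-binding protein, the helicase and the scaffold of eIF4F, and the Eif4e and Eif4g1 promoters held 2 copies each. A match is a string of letters and not a measured binding site.

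The gene tables held 30362256, 28419259 and 31959927 reads in libraries 1, 2 and 3. Library 1 stood apart in red-cell RNA: the 7 erythroid markers found in the annotation, of 8 listed, summed to 14030, 1180 and 811 TPM in libraries 1, 2 and 3. It was also highest for 9 of 10 proliferation genes, whose TPM summed to 716, 374 and 507.5. All 6 Treg markers were detected, with Foxp3 at 135, 149.6 and 106 TPM. B cell markers summed to 42.9, 40.2 and 67.7 TPM over 5 genes, myeloid markers to 124, 57.4 and 74.8 TPM over 6 genes, and CD8 and NK markers to 28.5, 21.5 and 31.3 TPM over 4 genes. Detected were 4 of 5, 3 of 6 and 3 of 4 of these genes, with the NK gene Ncr1 at 0 reads. The B cell factor Pax5 had 0.34, 0.05 and 0.05 TPM. Ribosomal protein genes took 2.53%, 2.84% and 3.67% of reads. The erythroid markers differed by a median of 15.8-fold and the proliferation genes by 2.33-fold between the highest and the lowest library. Libraries labelled as technical replicates thus differed in content by far more than counting error, and whether they are repeats of 1 RNA was not tested, so an SD here may hold more than technical spread. The part of these differences in the results below was not tested. In RNA pooled from many cells, fewer cells of a type and less RNA per cell cannot be told apart.

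Almost the whole set was expressed, and at high levels. Of 63 members, 60 were detected at 1 TPM (a level scaled for transcript length and library size) or more in every library, against 48.1% of protein-coding genes. The median member stood at 90.6 TPM, against 1.17 TPM for all protein-coding genes and 30.1 TPM for the detected ones. Together the members took 1.48%, 1.47% and 1.59% of all TPM in libraries 1, 2 and 3. Levels were very uneven: Eef1a1 alone held 28.1%, 27.5% and 29.0% of the members' TPM, and the 5 highest members held 53.4%, 52.2% and 54.0%. A mean of 100 TPM or more was reached by 28 members, and Eef1a1, Eif1 and Eif5a passed 10 times that level. The members without detection were Eef1a2, Eif4e1b and Eef1akmt3.

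**Figure D1:**
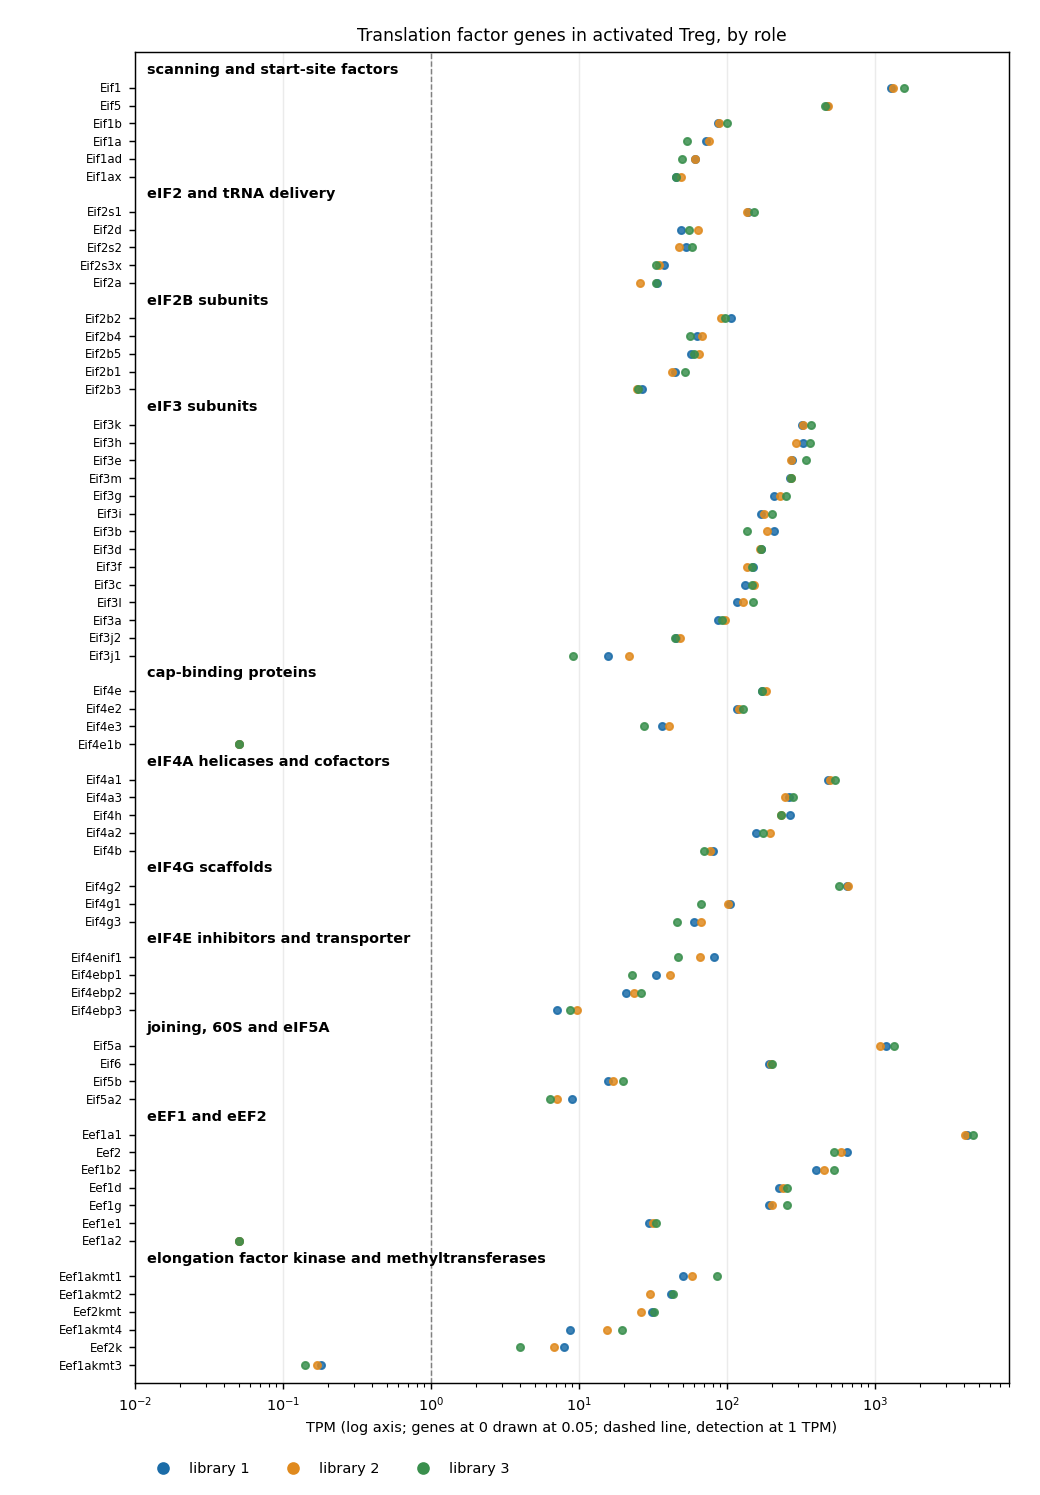
TPM on a log axis for each of the 63 genes (rows, grouped by role and ordered by mean level), with 1 point per library. Within most roles 1 or 2 genes stand well above the rest, and Eef1a2, Eif4e1b and Eef1akmt3 lie left of the dashed detection line at 1 TPM.

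The elongation factors held the highest level of the set. Eef1a1 (chromosome 9, 78478449 to 78489151, minus strand), the GTPase that brings aminoacyl-tRNA to the ribosome, stood at 4169, 4039 and 4613 TPM in libraries 1, 2 and 3. Its paralog Eef1a2 (chromosome 2, 181147653 to 181157014), the form of adult muscle and neurons, had 0 reads in every library. A count of 0 allows up to 3 reads per library, so Eef1a1 was at least 48210-fold to 69657-fold higher per length, counting error only. The coding sequences share 80.6% of 1384 aligned bases.

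Genes of the eEF1B exchange complex, which reloads eEF1A with GTP, lay well below their substrate. Eef1b2 had 397, 451 and 523 TPM, Eef1d 239 ± 15.6 TPM and Eef1g 215 ± 33.3 TPM (mean ± SD, n = 3 libraries, here and below). Eef2 (chromosome 10, 81176631 to 81182498, plus strand), the translocase, stood at 646, 586 and 527 TPM, lowest in library 3. The log2 ratio of Eef2 to Eef1a1, on TPM + 1, was -2.87 ± 0.23, so that transcripts of the translocase were fewer in every library. Eef1e1, listed here by name though its product AIMP3 sits in the aminoacyl-tRNA synthetase complex, had 29.5, 31.5 and 32.9 TPM.

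Enzymes that modify the elongation factors lay below Eef1a1 and Eef2. Eef2k, the kinase that inhibits eEF2, stood at 7.93, 6.75 and 3.97 TPM, and the log2 ratio of Eef2 to Eef2k was 6.38 ± 0.30. Eef2kmt, an eEF2 lysine methyltransferase, had 30.9, 26.0 and 31.8 TPM. Among the eEF1A lysine methyltransferases, Eef1akmt1 had 49.97, 58.1 and 85.5 TPM, Eef1akmt2 41.4, 30.3 and 42.8 TPM and Eef1akmt4 8.63, 15.3 and 19.4 TPM. Eef1akmt3 had 0.18, 0.17 and 0.14 TPM, from 8 to 9 reads per library, below detection. The ratio of highest to lowest library in CPM had a median of 1.90 over the 5 enzymes tested and 1.24 over the 6 eEF1 and eEF2 genes tested.

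Among the factors that scan for the start codon, Eif1 (chromosome 11, 100319885 to 100322096, plus strand) was the second member by level, with 1275, 1318 and 1556 TPM. Its paralog Eif1b, whose coding sequence is 81.1% identical, had 86.7, 88.0 and 99.9 TPM, and the log2 ratio was 3.90 ± 0.04. Eif5, the GTPase-activating protein of eIF2, had 470.1, 481 and 455 TPM. The eIF1A genes were lower and closer to each other: the autosomal Eif1a had 72.3, 74.8 and 53.5 TPM and the X-linked Eif1ax 45.4, 48.8 and 45.2 TPM. The log2 ratio of Eif1ax to Eif1a was -0.50 ± 0.23. It was below 0 in every library, but its mean did not exceed 2 SD without library 1 or without library 2. Eif1ad, a relative of eIF1A, had 57.1 ± 6.32 TPM.

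The eIF2 complex and its exchange factor eIF2B were of middling level, each with uneven subunits. Eif2s1, the alpha subunit that stress kinases phosphorylate, stood at 139, 136 and 152 TPM, above Eif2s2 (beta) at 52.4 ± 5.35 TPM and Eif2s3x (gamma) at 35.0 ± 2.07 TPM. Eif2a and Eif2d, which encode tRNA-delivering proteins outside this complex, had 33.4, 25.7 and 32.9 TPM and 55.9 ± 7.42 TPM. Eif2s1 is the only core eIF2 subunit gene above 100 TPM, counting all its transcripts. On coding transcripts alone Eif2s1, Eif2s2 and Eif2s3x had means of 56.5, 51.9 and 34.55 TPM. Of the eIF2B genes, Eif2b2 (beta) was highest with 107, 91.0 and 96.2 TPM and Eif2b3 (gamma) lowest with 26.5, 24.7 and 24.9 TPM. Eif2b5, the catalytic epsilon subunit, had 56.6, 64.4 and 59.6 TPM, with Eif2b1 (alpha) at 46.1 ± 4.82 TPM and Eif2b4 (delta) at 62.3 ± 6.01 TPM. The log2 ratio of Eif2s1 to Eif2b5 was 1.23 ± 0.14, larger than the spread between libraries. On coding transcripts alone it was -0.09 ± 0.12, within its spread, as described below. The order of the eIF2B genes changed there too. Eif2b2 had a coding mean of 51.6 TPM, below Eif2b5 at 60.2 TPM and Eif2b4 at 56.7 TPM. In library 1 Eif2b2 was still the highest of these, with 60.7 TPM against 56.65 and 56.2 TPM.

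The eIF3 genes were all well expressed apart from those of eIF3j. Leaving out the loosely bound subunit eIF3j, the 12 subunits lay between 91.9 ± 4.67 TPM for Eif3a and 339 ± 24.7 TPM for Eif3k, a ratio of 3.69 in the means, or 1.88 on the log2 scale. The same log2 spread was 1.90, 1.76 and 2.00 within libraries 1, 2 and 3. Their median was 179 TPM. Eif3a, the largest subunit and a scaffold of the complex, stood at 87.1, 96.5 and 92.1 TPM. Eif3k, a small subunit dispensable in some organisms, stood at 322, 327 and 367 TPM. Eif3h, Eif3e and Eif3m followed Eif3k with 327 ± 35.5 TPM, 294 ± 40.3 TPM and 269 ± 1.5 TPM. The core subunit gene Eif3b had 208, 186 and 136 TPM, lowest in library 3. The core subunit gene Eif3c had 144 ± 10.1 TPM, and Eif3g and Eif3i had 229 ± 20.9 TPM and 182 ± 16.2 TPM. Eif3d, which can itself bind the cap, had 168 ± 1.12 TPM, while Eif3f and Eif3l had 144 ± 7.06 TPM and 132 ± 17.1 TPM. In the second gene table described below, scaled per kilobase, the log2 spread over the 12 subunits was 1.01, with Eif3k still the highest and Eif3f the lowest. On coding transcripts alone it was wider, 2.70, with Eif3a at 51.0, 55.6 and 48.2 TPM and Eif3k at 318, 324 and 362 TPM.

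Of the cap-binding proteins, Eif4e (chromosome 3, 138526179 to 138559696, plus strand) stood at 173, 183 and 172 TPM, with no overlap with its relatives. Eif4e2, which encodes the repressor 4EHP, had 116, 121 and 128 TPM, and Eif4e3 had 36.1, 40.3 and 27.3 TPM. The log2 ratios were 0.53 ± 0.09 for Eif4e over Eif4e2 and 2.33 ± 0.24 for Eif4e over Eif4e3. Eif4e1b, an oocyte form, had 0 reads in all libraries, so Eif4e was at least 990-fold higher per length at the floor of 3 reads. The authors' posterior mean TPM lists Eif4e1b at 0.65, 0.70 and 0.56 despite the absence of reads, which puts Eif4e 247-fold, 241-fold and 288-fold higher, so the bound holds for the read counts and not for that estimate.

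Eif4a1, the main helicase of eIF4F, stood at 483, 498 and 535 TPM, and its paralog Eif4a2 at 156, 195 and 175 TPM. The log2 ratio of Eif4a1 to Eif4a2 was 1.52 ± 0.16. Eif4a3, which serves the exon junction complex and not eIF4F, had 264, 247 and 280.3 TPM. The helicase cofactors were Eif4h with 242 ± 19.2 TPM and Eif4b with 79.8, 76.6 and 69.8 TPM.

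Scaffolds were led by the member that cannot bind eIF4E. Eif4g2, whose product DAP5 lacks the eIF4E-binding site, stood at 642, 654 and 571 TPM. The eIF4F scaffolds Eif4g1 and Eif4g3 stood at 104, 101 and 66.5 TPM and 60.1, 66.6 and 46.0 TPM. The log2 ratios were 2.79 ± 0.25 for Eif4g2 over Eif4g1 and 0.63 ± 0.13 for Eif4g1 over Eif4g3. All 3 scaffold genes were lowest in library 3.

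The genes that hold eIF4E back were low relative to it. Eif4ebp1 had 33.2, 41.0 and 22.6 TPM, Eif4ebp2 20.7, 23.3 and 26.0 TPM and Eif4ebp3 7.03, 9.74 and 8.62 TPM. Relative to Eif4e, the log2 ratio was -2.45 ± 0.38 for Eif4ebp1 and -2.87 ± 0.17 for Eif4ebp2. Between Eif4ebp2 and Eif4ebp1 the ratio was -0.42 ± 0.53, within its spread, since Eif4ebp1 was higher in libraries 1 and 2 and Eif4ebp2 in library 3. Eif4enif1, the eIF4E transporter 4E-T, had 82.0, 65.7 and 46.8 TPM.

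Late initiation and eIF5A complete the set. Eif5a (chromosome 11, 69916714 to 69921958, minus strand), which carries the hypusine residue, stood at 1181, 1073 and 1331 TPM. Its paralog Eif5a2, known from testis and brain, had 8.92, 7.05 and 6.34 TPM, and the log2 ratio of Eif5a to Eif5a2 was 7.15 ± 0.31. Eif6, which keeps free large subunits from joining, had 197 ± 3.92 TPM, and Eif5b, the joining GTPase, had 15.8, 16.9 and 19.8 TPM.

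**Figure D2:**
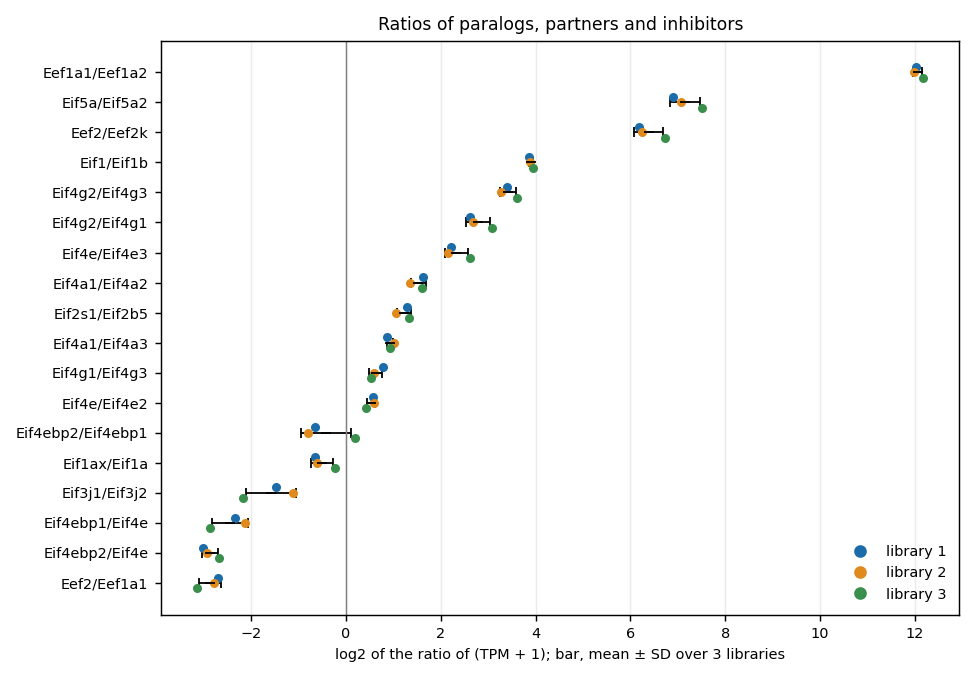
Log2 ratio of TPM + 1 for 18 gene pairs (rows), with 1 point per library and bars for the mean ± SD over 3 libraries. Eef1a1/Eef1a2 lies farthest right at 12.06, where Eef1a2 has 0 reads and the value rests on the added 1, and Eif4ebp2/Eif4ebp1 is the pair whose points fall on both sides of 0.

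Of the 18 pairs, 17 had a ratio larger than the spread, meaning 1 sign in every library and a mean above 2 SD. With 3 libraries a sign-flip test cannot give a two-sided p below 0.25, so none was made. On coding transcripts alone 2 ratios changed sign, Eif4ebp2/Eif4ebp1 to 2.60 ± 0.49 and Eif2s1/Eif2b5 to -0.09 ± 0.12. There Eif4a1/Eif4a2 widened to 2.68 ± 0.13 while Eif1/Eif1b narrowed to 2.25 ± 0.12. Eif4ebp1/Eif4e moved from -2.45 to -5.33 ± 0.37, Eif3j1/Eif3j2 from -1.58 to -2.97 ± 0.06 and Eif1ax/Eif1a from -0.50 to -1.68 ± 0.185. In the second gene table, scaled per kilobase, 8 of the 18 ratios had the opposite sign: Eef2/Eef1a1, Eif4a1/Eif4a2, Eif4a1/Eif4a3, Eif4e/Eif4e2, Eif1/Eif1b, Eif1ax/Eif1a, Eif3j1/Eif3j2 and Eif2s1/Eif2b5. That table holds few of the reads of several of these genes, as described below.

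Genes that work with the factors were taken from a list of 35, of which 34 were detected. Tpt1, a TOP mRNA, was the highest with 1459 ± 81.6 TPM, followed by the ribosomal scaffold gene Rack1 with 683 ± 66.4 TPM, the poly(A)-binding protein gene Pabpc1 with 309 ± 13.7 TPM and its inhibitor gene Paip2 with 298 ± 27.9 TPM. The lowest were the release factor gene Gspt2 with 0.583 ± 0.402 TPM, the eIF2 kinase gene Eif2ak4 (GCN2) with 6.55 ± 2.84 TPM and Pabpc4 with 8.46 ± 1.48 TPM. In the chi-square test of counts between libraries described next, 32 of 35 differed.

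The libraries differed from one another in these genes beyond counting error, as in most genes. When counts were set against normalized library sizes by chi-square, with Benjamini-Hochberg adjustment over 17190 genes averaging at least 10 reads, 54 of 60 members were called. The same test called 80.0% of all genes tested. It compares these libraries and no conditions, and the 3 members without detection were too low to be tested. The 6 members that missed the threshold were Eef1e1, Eif2b3, Eif2s3x, Eif4b, Eif4e and Eif4ebp3, with adjusted p from 0.0504 for Eif4ebp3 to 0.184 for Eif4b. Counts of the second gene table differed for 27 of 57 members, against 65.2% of its genes. The authors' deposited intervals of their second TPM estimate overlapped across all libraries for 13 of the 60 detected members, against 27.6% of detected protein-coding genes.

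Most of these differences were small. The ratio of the highest to the lowest library, in normalized reads (CPM), had a median of 1.25 over the 60 members and 1.33 over all 11109 genes of at least 100 reads. More than 1.5-fold was seen in 6 of 60 members, against 31.1% of all such genes. These were Eef2k (2.49-fold), Eef1akmt4 (2.43-fold), Eef1akmt1 (1.90-fold), Eif4ebp1 (1.66-fold), Eif4enif1 (1.58-fold) and Eef1akmt2 (1.55-fold). Among them, 4 modify elongation factors and the other 2 bind eIF4E. Mean reads were 315 for Eef1akmt4, 344.5 for Eef2k, 534 for Eif4ebp1, 745.9 for Eef1akmt2, 1071 for Eef1akmt1 and 2788 for Eif4enif1. The share of all genes was not matched for reads. By deposited TPM 8 of 60 members passed this fold, against 34.1% of genes: Eef1akmt2 was not among them, and Eif3j1 (2.37-fold), Eif4g1 (1.56-fold) and Eif3b (1.52-fold) were. Eef2k was lowest in library 3, with 463, 373 and 198 reads, and Eef1akmt4 lowest in library 1, with 181, 296 and 468 reads (chi-square, adjusted p = 1.97e-27 and 7.94e-24). Of the 6, Eef1akmt4, Eif4enif1 and Eef1akmt2 are overlapped by another gene with at least 10% of the member's reads. Eef2k is overlapped only by genes below that share, Gm15774 with a mean of 4.2 reads and Gm45047 with 0.7.

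The largest chi-square statistics belonged to abundant genes with modest folds, since depth makes small differences visible. Eef1a1 had 130678, 118946 and 167916 reads in libraries 1, 2 and 3 and differed 1.24-fold, with a statistic of 4072. Eif5a had 26793, 22596 and 35794 reads and differed 1.39-fold, with a statistic of 1688. Eif1 (15731, 14088 and 20818 reads, 1.29-fold) and Eef1g (6032, 5938 and 9459 reads, 1.47-fold) reached 705.3 and 704.9. Eif3e (7562, 6877 and 11076 reads, 1.41-fold) and Eif4a1 (14938, 14032 and 19610.3 reads, 1.23-fold) reached 697.5 and 501. All 6 were highest in library 3.

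By CPM, library 3 was the highest library for 38 of 60 members, against 39.1% of all genes tested. Library 1 was highest for 11 members, against 31.6%, and library 2 for 11, against 29.3%. Library 3 was also the lowest for 12 members, against 37.3%. The members' median log2 difference, each library minus the mean of the others, was -0.10 for library 1, -0.08 for library 2 and 0.17 for library 3, while the medians over all genes were 0.00, -0.01 and 0.01. On the deposited TPM scale the count for library 3 was 27 of 60, against 29.2% of all genes. On that scale the median for library 3 was 0.04, with the median of all genes at -0.09. In the second gene table the medians were 0.01 for library 2 and 0.057 for library 3.

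The roles did not move alike. By CPM, library 3 was highest for 12 of 14 eIF3 genes, 5 of 6 eEF1 and eEF2 genes tested and 7 of 9 genes listed as known TOP mRNAs, with median differences of 0.21, 0.28 and 0.29. By deposited TPM these counts were 6 of 14, 5 of 6 and 6 of 9, and the medians 0.05, 0.16 and 0.17, so the eIF3 count depended on the scale. Over all genes tested, library 3 was highest for 39.1% by CPM and 29.2% by deposited TPM, and for 4125 of 8085 genes under 2000 bases by CPM. Most of the genes listed as TOP mRNAs had no tract at their annotated starts, as described above. The eIF4G scaffolds had a median of -0.32 by CPM and -0.45 by TPM, and all 3 were lowest in library 3 on both scales. All 3 are longer than 2000 bases. By CPM, 37.3% of all genes tested and 4487 of 9105 genes of 2000 bases or more were lowest there, the longer genes with a median of -0.12. The share of all genes lowest there by TPM was not computed. Eef2 was lowest in library 3 while Eef1a1, Eef1b2, Eef1d, Eef1e1 and Eef1g were highest in it.

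The library 3 difference by CPM moved with gene length. Of 34 members whose mean length was under 2000 bases, 30 were highest in library 3, against 8 of 26 longer members. Over all genes tested, 4125 of 8085 shorter genes and 2597 of 9105 longer genes were highest there. Spearman's rho between length and the library 3 difference was -0.50 across 60 members, and -0.27 across 17190 genes. These genes share libraries and depth and are not independent, so no p is given. The share of ribosomal protein reads, whose genes are short, was also highest in library 3. Fragment sizes and RNA quality were not analysed here, and the part of length in the order of libraries was not tested.

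**Figure D3:**
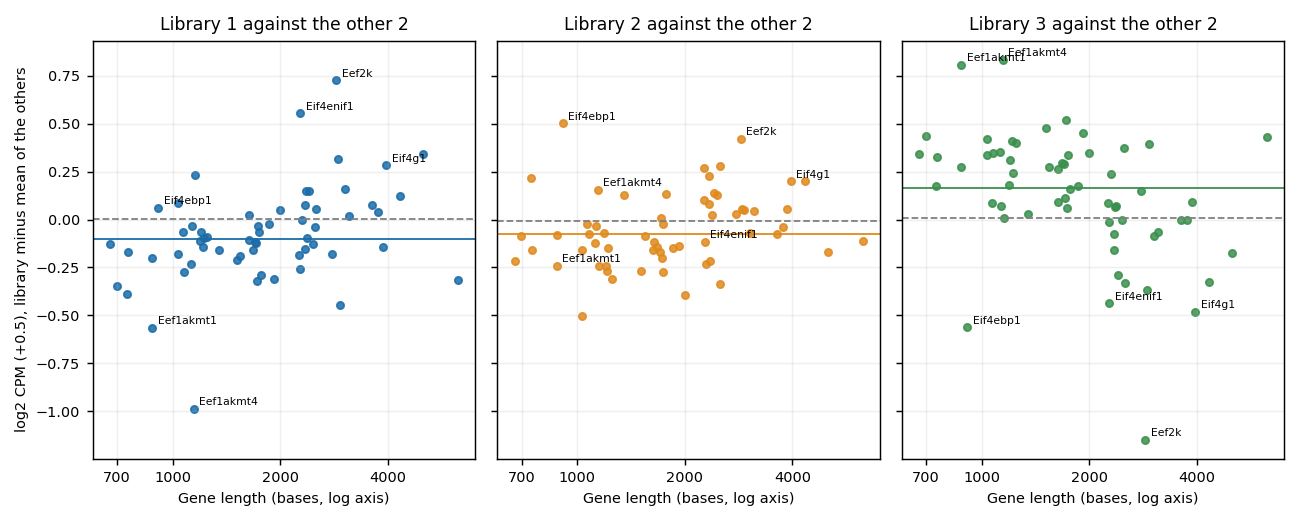
Log2 CPM (plus 0.5) of each library minus the mean of the others (y axis) against gene length (x axis, log) for the 60 members tested, with the members' median as a solid line and the median of all genes tested as a dashed line. In library 3 short genes lie mostly above 0 and several long ones below, down to Eef2k.

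Transcript estimates divided the genes' levels among annotated forms, and in some members, as in other genes, the coding form was not the leading one. In 44 of 60 detected members 1 transcript held 50% or more of TPM in every library, against 61.0% of detected protein-coding genes. The main transcript was not annotated as protein-coding in 8 of 60 members, near the share of 13.2% of those genes. In 18 members 20% or more of TPM lay on noncoding transcripts, against 41.7%. At a threshold of 10% the number of members was 28, against 56.1%. The median share on noncoding transcripts was 8.88% in members and 13.7% in detected protein-coding genes.

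The most extreme was Eif4ebp1, the mTORC1 target that restrains eIF4E. Its processed transcript Eif4ebp1-202 held 90.5% ± 0.521 of TPM, and the coding Eif4ebp1-201 9.51% ± 0.521. On coding transcripts alone Eif4ebp1 stood at 3.21, 4.07 and 2.02 TPM in libraries 1, 2 and 3, against 20.7, 23.3 and 26.0 TPM for Eif4ebp2, whose transcripts are all coding. Eif4ebp2 was then the higher in every library, unlike at the gene level.

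Among the 3 most abundant members, Eif1 had the largest noncoding share. The processed transcripts Eif1-202 and Eif1-203 held 47.6% ± 1.35 and 20.4% ± 2.26, and the coding Eif1-201 27.4% ± 2.70. Coding Eif1 transcripts came to 459, 406 and 453 TPM, still above all of Eif1b. Eif2s1 placed 58.9% ± 0.635 on the processed Eif2s1-203, leaving 55.4, 54.7 and 59.5 TPM on coding transcripts, against 56.6, 64.4 and 59.6 TPM for Eif2b5, whose transcripts are all coding.

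Retained introns held most of Eif5b and Eif1ax and took a share of several more. Eif5b placed 63.3% ± 1.83 on the retained-intron Eif5b-202, leaving 4.93, 5.68 and 6.98 TPM on coding transcripts. Eif1ax placed 56.9% ± 2.27 on Eif1ax-202, so its coding level was 19.4, 22.2 and 18.5 TPM. That lay below Eif1a, whose transcripts are all annotated as coding, in every library. Eif3a placed 42.6% ± 3.67 on Eif3a-202, Eif2b2 32.3% ± 6.32 on Eif2b2-203, and Eef1e1 34.7% ± 3.94 on Eef1e1-203. In Eef2kmt the retained-intron Eef2kmt-202 and the coding Eef2kmt-201 were close, at 35.4% ± 5.69 and 34.0% ± 4.98, and the coding form was the higher in library 3.

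Transcripts annotated for nonsense-mediated decay led in Eif2a, where Eif2a-207 held 53.4% ± 2.21. They also held a large share in Eef1b2, where Eef1b2-205 took 39.6% ± 1.61 beside 50.7% ± 1.34 for the main coding transcript, the one with the TOP tract shown above. Eif4a2 spread over many forms, with 36.3% coding, 39.4% retained intron and 24.4% decay transcripts. Coding Eif4a2 came to 59.4, 66.4 and 64.2 TPM, against 392, 390.1 and 451 TPM for coding Eif4a1. The other members past 20% noncoding were Eif6 (43.3%), Eif5 (36.9%), Eif4enif1 (35.3%), Eif4a3 (27.2%) and Eef1g (21.4%), besides Eif3j1. Their gene levels were Eif6 193, 198 and 200.3 TPM, Eif4a3 264, 247 and 280.3 TPM and Eef1g 192, 199 and 253 TPM, with Eif5 and Eif4enif1 given above. TPM counts a read on a short form for more than one on a long form, and Eif4ebp1-202 has 798 bases, Eif1-202 383 and Eif2s1-203 433, against 1997, 1322 and 3405 in their coding transcripts.

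**Figure D4:**
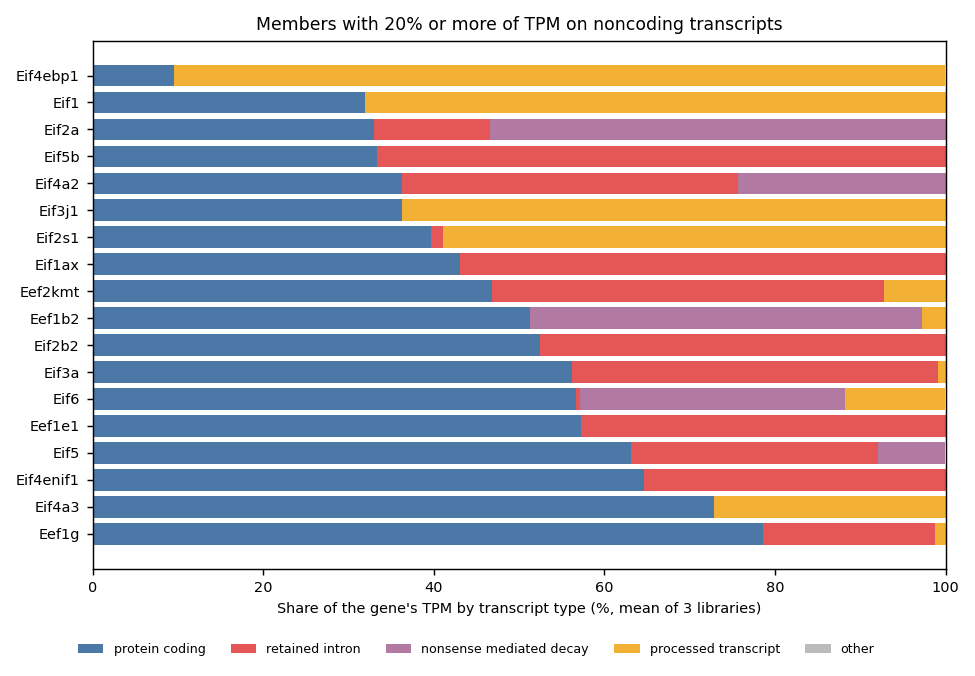
Share of each gene's TPM by annotated transcript type (bars, mean of 3 libraries, in percent) for the 18 detected members with 20% or more on noncoding transcripts. Coding shares run from 9.51% for Eif4ebp1 at the top to 78.6% for Eef1g at the bottom, and the noncoding type differs from gene to gene.

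Several levels rest on reads that could belong to another locus. Eif3j1 and the single-exon Eif3j2 have identical bases over 783 aligned coding positions, so their split of 15.6, 21.6 and 9.14 TPM and 45.1, 47.9 and 44.2 TPM is uncertain. A second deposited gene table of whole-number counts held 31 reads of Eif3j1 in each library and 4, 2 and 1 reads of Eif3j2. Compared with the main table, it held 0.52% of the reads of Eef1a1, 0.60% of Eif2s3x, 1.81% of Eif1, 1.97% of Eif4a1, 2.81% of Eif5a and 3.28% of Eef1g. Its median was 27.7% over 59 members of 100 or more reads and 44.3% over 10192 genes. That table is compressed for the most abundant genes, holding by the main table's reads a median of 4.75% in the 161 most-read genes, 25.7% in the next 1136 and 52.9% in the 4104 least-read genes compared. Eif1, Eif4a1 and Eef1g are among the 1136, and Eif2s3x, at 2434 reads, and Eif3j2, at 2085, are in neither group, so these 5 lay far below genes of similar reads. Processed pseudogenes named for the family were mostly near 0. The exception was Eif4a-ps4, listed at 50.5, 63.2 and 79.2 TPM.

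Overlapping genes add a further limit, because the strand used in counting is not given. Of 63 members, 11 were overlapped on the other strand by a gene with at least 10% of the member's reads. The largest such neighbour was Rassf5, which overlaps Eif2d over 11249 bases with a mean of 25541 reads, against 2408 for Eif2d. Serp1 overlaps Eif2a over 72 bases, Drg1 overlaps Eif4enif1 over 42197 bases, and Alg3 overlaps Eef1akmt4 over 143 bases. On the same strand, 3 members were overlapped to that degree: Eif4e3 by Gm20696, Eif4ebp3 by AC115631.1 and Eef1akmt2 by Gm45501. Levels of these members may include reads of their neighbours. How many of all genes are overlapped to that degree was not counted, so these counts have no background beside them.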

How the data were processed

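Each library had a gene table and a transcript table on mm10 with GENCODE M21 and a gene table on M4, per the file headers and labels. Expected counts as deposited are the authors' estimates of reads per feature, not normalized, and posterior mean counts are their second estimate of the same. TPM and FPKM as deposited were scaled by the authors for length and depth. Percent columns in the deposited transcript tables give each transcript's share of its gene. The M4 table as deposited holds whole-number counts. Not given in the sources used here are its filters, the aligner, quantifier, kit and strandedness. Intervals deposited beside the posterior mean TPM are the authors'.

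Rounded expected counts of genes averaging at least 10 reads were tested by chi-square with 2 degrees of freedom, taking library sizes scaled by TMM in edgeR 4.0.16 (R 4.3.3), at a Benjamini-Hochberg level of 0.05. With 1 group no quasi-likelihood contrast exists. Differences used log2 CPM + 0.5, ratios log2 of TPM + 1, and transcript shares TPM. Spike-in entries and entries with a bare number as ID took 0.166% to 0.229% of reads and were left out. DESeq2 1.42.0 gave alternative size factors. Coding sequences were aligned with Biopython 1.88. Other steps ran in Python 3.11.15 (pandas 2.3.3, scipy 1.17.1, numpy 2.4.6). The test was tried on simulated counts. Floors of 3 reads cover counting error only. The labels mention no molecular tags.

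The members, role lists, pairs and tests were chosen with earlier results of these data known, and the start-codon, tract and promoter features after levels were seen. The labels call the libraries technical replicates of 1 sample, which their content puts in doubt, and p-values measure only the difference between these libraries. Library values are given for the highest and lowest member of each role, pairs, undetected members, the 6 with the largest chi-square and the 6 with the largest fold, and members with 20% or more noncoding TPM, and means for 7 other translation genes, while 1 more that the rule names is not reported here.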

Additional observations from a re-analysis of the deposited data

How the results depend on the processing

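No paired analysis was possible because the 3 libraries form 1 group. Alternatives gave 195 values for 29 results, of which 170 were counted as unchanged. For ratios this meant the same sign and side of the threshold. Median TPM and the eIF3 spread had to lie within the SD between libraries. Median log2 differences had to keep their sign and stay within a fixed distance. Counts had to stay within a fixed fold, so 38 differing members without library 3 still counted as unchanged beside 54. Members detected stayed at 60 with any library left out. Their median TPM was 85.2 on posterior mean estimates and 83.8 to 87.4 with 1 library left out. Members differing between libraries numbered 38 to 52 with 1 library left out, beside 54.1% to 66.2% of genes, and 27 of 57 in the whole-number gene table, against 65.2% of its genes. In that table the median log2 difference was 0.01 for library 2 and 0.057 for library 3, and on deposited TPM it was 0.04 for library 3. The eIF3 spread was 1.01 in the whole-number table, 2.70 on coding transcripts and 1.82 to 1.95 with 1 library left out. A threshold of 10% gave 28 members with noncoding TPM.

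Coding transcripts alone, an alternative chosen after seeing the data like deposited TPM for the fold and library 3 counts, turned Eif4ebp2/Eif4ebp1 to 2.60 and Eif2s1/Eif2b5 to -0.088. The whole-number table turned the direction of 8 ratios: Eef2/Eef1a1 to 1.82, Eif4a1/Eif4a2 to -1.83, Eif4a1/Eif4a3 to -2.62, Eif4e/Eif4e2 to -1.41, Eif1/Eif1b to -0.055, Eif1ax/Eif1a to 0.63, Eif3j1/Eif3j2 to 2.89 and Eif2s1/Eif2b5 to -0.34. The cause was not tested. Eif4ebp2/Eif4ebp1 became larger than its spread there (-1.27) and without library 3, where leaving out 1 library gave -0.72 to -0.23. Eif1ax/Eif1a with 1 library left out ran from -0.63 to -0.42, within 2 SD without library 1 or without library 2. No pair changed sign or call under a pseudocount of 0.1, posterior mean TPM or FPKM.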
